A study of Mus musculus with 3 samples.

Results

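Transcripts of the primary cilium were followed here in embryoid bodies of the mouse, clumps of embryonic stem cells in suspension that differentiate into many cell types. The 37 genes were taken by name, with no cut on their values, though earlier results of these data were known. They come from the parts lists of intraflagellar transport, the BBSome, the transition zone, the basal body and the transcription factors of ciliated cells. All 37 were found on the array, with 55 probes, of which 53 passed the filter on dim probes, and all 37 were among the 20389 genes tested.

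Embryoid bodies labelled wild type control were set against embryoid bodies labelled Dido3deltaCT+HADido3CT, whose Dido3 is truncated at its C-terminal end and which overexpress the part that was cut off. The latter are called mutant+CT here. Both had grown for 10 days in suspension without LIF, the cytokine that keeps stem cells undifferentiated, and 3 biological replicates of each were hybridised in pairs on 3 Agilent arrays of 2 colours. Wild type carried Cy5 on replicates 1 and 3 and Cy3 on replicate 2. No sample had the deletion alone or the added fragment alone, so their effects cannot be told apart, and the labels do not say how many clones the mutant+CT cells came from. An embryoid body is a mixture, so fewer cells of a type and less RNA per cell cannot be told apart in any value below.

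The primary cilium is a solitary, non-motile projection of the cell surface that grows from a centriole and carries receptors, among them those of Hedgehog signalling. Intraflagellar transport trains of the IFT-B complex carry cargo to the tip on kinesin-2, and trains with the IFT-A complex return it to the base. The BBSome moves membrane proteins along with these trains, and the transition zone at the base acts as the gate. RFX factors and Foxj1 switch on cilium genes, RFX factors through a promoter motif called the X-box.

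Values are normalised spot intensities in arbitrary units for each channel, which are not comparable between probes, and log2 ratios, in which mutant+CT is divided by wild type. Intensities were normalised within each array only, so overlap of the groups across arrays mixes differences between arrays with those between groups. Such overlap, or its absence, is only described below, and the comparison rests on the ratio of each array. Errors are SDs over the 3 arrays (n = 3), and each gene is represented by its brightest probe that passed the filter. The share of spots well above background was 68.1% to 78.5% per channel, and no spot was saturated. The ratios of all genes had an SD of 0.77, 0.74 and 1.02 on replicates 1, 2 and 3. The targeted gene, Dido1, had mean ratios of -2.39, 0.77, 1.79 and 3.53 at its 4 probes. Where these probes lie relative to the deleted region was not determined, so they do not check the labels.

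As a group the cilium genes had lower signals in mutant+CT than in wild type, by small amounts. Lower on every array were 19 of the 37 (51.4%), against 17.4% of all genes. Higher on every array were 3 of the 37 (8.11%), namely Ofd1, Cep164 and Hdac6, against 20.3% of all genes. The median log2 ratio of the 37 was -0.30, against 0.00 over all genes, and 28 of the 37 (75.7%) had a mean ratio below 0, against 50.3%. By array the median was -0.14, -0.37 and -0.44, and 25, 28 and 27 of the 37 lay below 0. The members are not independent of each other, and these counts describe the list without testing it.

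None of the 37 passed limma's test over all genes with Benjamini-Hochberg adjustment, and neither did any of the other genes (0 of 20389, 0%). At an unadjusted p under 0.05, 10 of the 37 (27%) were lower, against 6.7% of all genes, and 0 of the 37 were higher, against 9.04%. At least 1.5-fold lower on every array were Pcm1, Bbs12 and Bbs7 (8.11%, against 2.66% of all genes), and none of the 37 was as far higher on every array, against 4.52%. Pcm1 alone was at least 2-fold lower on every array (2.7%, against 0.991%), and 0 of the 37 were 2-fold higher, against 1.9%. The spread of the ratios over the 37 genes was smaller than over all genes on every array, with SDs of 0.44, 0.55 and 0.79.

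Replicate 2, the array with the dyes swapped, opposed both of the others in sign for 7 of the 37 genes (18.9%), against 33.4% of all genes. Over the 37 genes the ratios of replicates 1 and 3 correlated at 0.64, those of 2 and 3 at 0.32 and those of 1 and 2 at 0.18 (Pearson, across genes, which are not independent). Over all genes the same pairs gave 0.54, 0.38 and 0.18. Replicate 2 is alone in its dye orientation, so a dye effect and a difference of that replicate cannot be told apart.

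**Figure D1:**
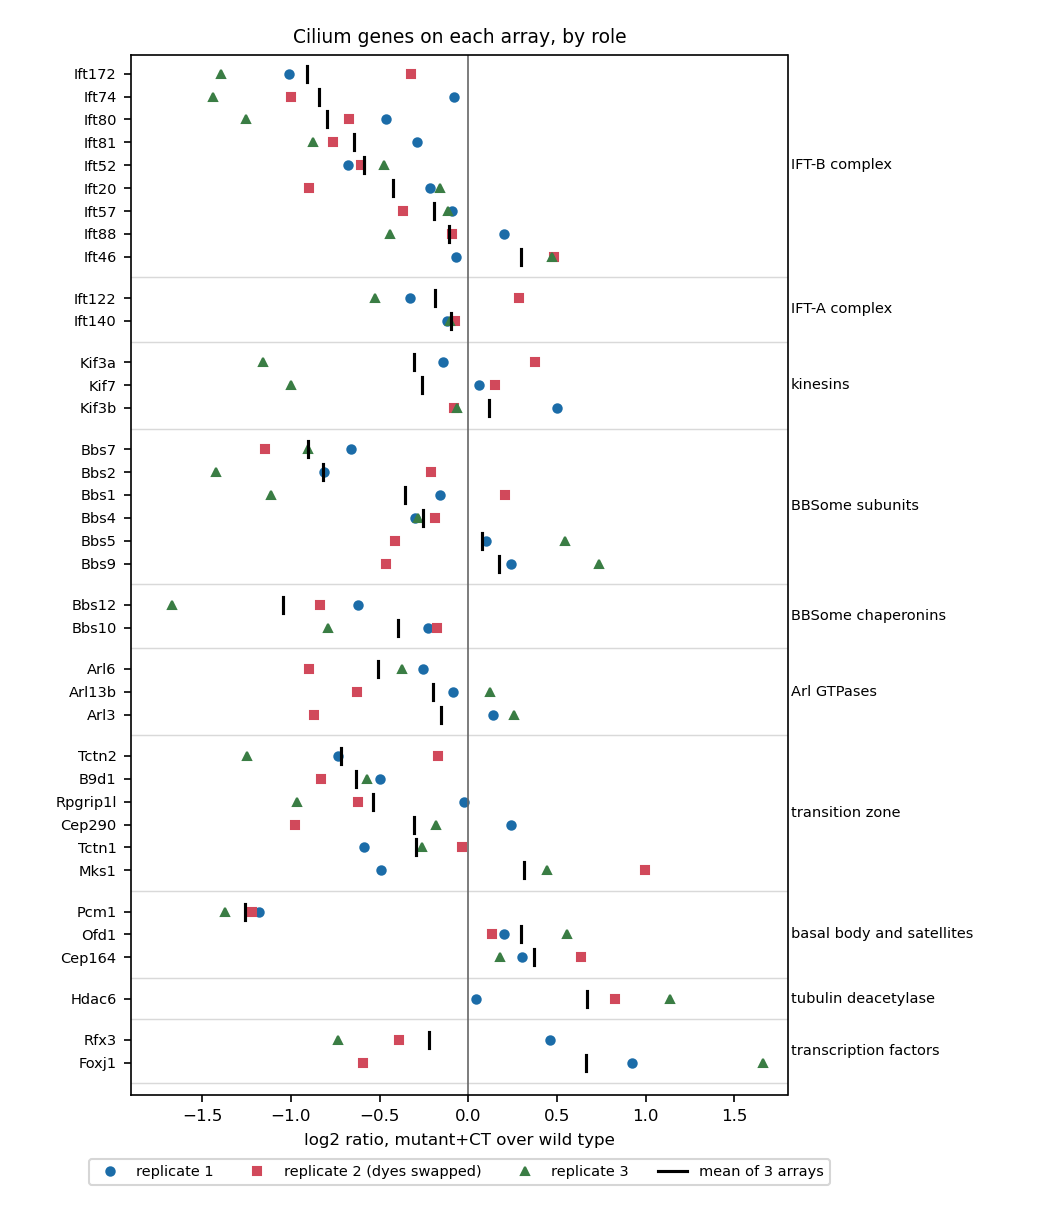
Log2 ratio of mutant+CT over wild type (x axis) of the 37 cilium genes, grouped by role. Symbols are the 3 arrays and black bars their mean. IFT-B and BBSome chaperonin genes lie mostly left of 0, with Pcm1 lowest at -1.26 and Hdac6 highest at 0.67.

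The IFT-B complex, the largest group, had the most genes with a mean below 0, at 8 of 9. It did not lead by share, as both BBSome chaperonins were lower on every array, with a median of -0.72. Of the 9 IFT-B genes on the list, 7 were lower on every array, against 17.4% of all genes. None of them was higher on every array, against 20.3%, and their median ratio was -0.59. Ift172, a peripheral subunit that links the train to its cargo, had normalised intensities of 727, 997 and 1879 in wild type and of 361, 797 and 714 in mutant+CT. Mutant+CT was dimmer on each array, least so on replicate 2, and the ranges overlapped between the groups. Its log2 ratio was -0.91 ± 0.54, with -1.01, -0.32 and -1.40 on the 3 arrays (limma, adjusted p = 0.235).

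Ift81 and Ift74 form the tubulin-binding module of IFT-B. Ift81 had intensities of 1230, 980 and 1141 in wild type and of 1008, 577 and 622 in mutant+CT, which gave -0.29, -0.76 and -0.88. Ift74 had 4023, 3496 and 8060 in wild type and 3808, 1749 and 2968 in mutant+CT, which gave -0.08, -0.999 and -1.44. For both genes replicate 1 was nearest to 0 and the intensities overlapped between the groups. The means were -0.64 ± 0.31 for Ift81 and -0.84 ± 0.69 for Ift74 (limma, adjusted p = 0.288 and 0.310). A dimmer probe of Ift74, listed on another transcript than the brighter one, had a mean ratio of -0.04 ± 0.27.

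Ift52, a core subunit that holds the complex together, was the steadiest of the lower IFT-B genes. Its intensities were 4917, 5346 and 6105 in wild type and 3071, 3511 and 4394 in mutant+CT, so that the groups did not overlap. The ratios were -0.68, -0.61 and -0.47, with a mean of -0.59 ± 0.10 (limma, adjusted p = 0.282). Ift80, a peripheral subunit, had 1930, 1602 and 3498 in wild type and 1400, 1007 and 1466 in mutant+CT, with no overlap. Its ratios were -0.46, -0.67 and -1.25, with a mean of -0.80 ± 0.41 (limma, adjusted p = 0.242).

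The remaining IFT-B genes lay closer to 0. Ift20, the subunit that also works at the Golgi, had a mean of -0.42 ± 0.41 and was furthest down on replicate 2, at -0.90. Ift57, a peripheral subunit, had a mean of -0.19 ± 0.16. Ift88, the gene mutated in a classic mouse model of polycystic kidney disease, had a mean of -0.11 ± 0.32 with mixed signs. Ift46 was the only IFT-B gene of these 9 with a mean above 0, at 0.30 ± 0.32. Its second probe was dim and well above background on only 2 of the 3 wild-type channels, so its ratio of 0.33 ± 0.23 adds no support.

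Ift140 and Ift122, both subunits of the IFT-A complex that drives the return journey, were close to 0. Ift140 had among the smallest mean ratios of the list, at -0.10 ± 0.02, with -0.12, -0.08 and -0.10 on the arrays. Its probe was dim, with intensities of 115, 83.5 and 86.9 in wild type and 106, 79.1 and 80.8 in mutant+CT, and it was well above background on 2 of the 3 wild-type channels. Its sign turned with other background corrections. Ift122 had a mean of -0.19 ± 0.42 and mixed signs.

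None of the kinesins kept its sign on all arrays. Kif3b, a motor subunit of kinesin-2, had a mean of 0.12 ± 0.33. Kif7, a kinesin that organises the cilium tip for Hedgehog signalling, had 0.06, 0.15 and -0.998, so that replicate 3 set its mean of -0.26 ± 0.64. A second Kif7 probe was not well above background on any array. Kif3a, the other kinesin-2 motor subunit, depended on the probe.

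The BBSome was split. Of the 6 subunits among the 37 genes, 3 were lower on every array, against 17.4% of all genes. On every array 0 were higher, against 20.3% of all genes, and the median was -0.31. Bbs7, a subunit of the BBSome core, had intensities of 533, 688 and 1224 in wild type and of 337, 311 and 654 in mutant+CT. Mutant+CT was dimmer on every array, and the highest mutant+CT value lay above the lowest wild-type value. The ratios were -0.66, -1.14 and -0.90, with a mean of -0.90 ± 0.24 (limma, adjusted p = 0.171). The second Bbs7 probe, dimmer and further along the transcript, had mixed signs (0.42, -0.68 and 0.22) and a mean of -0.01 ± 0.59.

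Bbs2, another core subunit, had intensities of 757, 489 and 1106 in wild type and of 430, 423 and 412 in mutant+CT. The mutant+CT values were nearly constant and all lay below the wild-type ones. The ratios were -0.82, -0.21 and -1.42, with a mean of -0.82 ± 0.61 (limma, adjusted p = 0.288). Bbs4 was slightly lower on every array, at -0.26 ± 0.06. Bbs1 had a mean of -0.35 ± 0.68 with mixed signs, and its second probe, with -0.49, -0.02 and -0.89, was below 0 throughout.

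Bbs5 and Bbs9 went the other way on replicates 1 and 3 only. Bbs5 had intensities of 1058, 2663 and 1920 in wild type and of 1135, 1998 and 2801 in mutant+CT, which overlapped. Its ratios of 0.10, -0.41 and 0.54 gave a mean of 0.08 ± 0.48, the nearest to 0 of all 37 genes, and its second probe had a mean of 0.00 ± 0.68. Without replicate 3 the Bbs5 mean was -0.16. Bbs9 had 0.24, -0.46 and 0.74, with a mean of 0.17 ± 0.60.

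Bbs12 and Bbs10, the chaperonin-like genes on the list, which help to assemble the BBSome, were lower on every array. Bbs12 had intensities of 486, 316 and 868 in wild type and of 316, 177 and 273 in mutant+CT, which met at the lowest wild-type and the highest mutant+CT value. The ratios were -0.62, -0.84 and -1.67, with a mean of -1.04 ± 0.55, or 2.06-fold lower in mutant+CT (limma, adjusted p = 0.196). Bbs10 was lower by less, with -0.23, -0.17 and -0.79 and a mean of -0.40 ± 0.34. Mkks, a related chaperonin-like gene from the wider trafficking list, named after its values were seen, had mixed signs (0.43, 0.28 and -0.83).

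Among the Arl GTPases, Arl6, which recruits the BBSome to membranes, was lower on every array with -0.25, -0.90 and -0.37. Its mean was -0.51 ± 0.34, and a second Arl6 probe had -0.44 ± 0.47. Arl3, which releases lipid-modified cargo inside the cilium, had 0.14, -0.87 and 0.26, so that only the array with swapped dyes was below 0. Arl13b, the GTPase of the ciliary membrane, also depended on the probe.

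Of the 6 transition zone genes, 4 were lower on every array, against 17.4% of all genes. On every array 0 were higher, against 20.3% of all genes, and the median was -0.42. B9d1, part of the B9 complex, had intensities of 3140, 3359 and 4641 in wild type and of 2220, 1891 and 3124 in mutant+CT, without overlap. The ratios were -0.50, -0.83 and -0.57, with a mean of -0.63 ± 0.17 (limma, adjusted p = 0.265). Tctn2, a tectonic of the same gate, had -0.74, -0.17 and -1.25, with a mean of -0.72 ± 0.54. Tctn1 had a mean of -0.30 ± 0.28 and Rpgrip1l, a scaffold of the zone, one of -0.54 ± 0.48, both below 0 on every array.

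Cep290, which tethers the ciliary membrane to the microtubules, had 0.24, -0.98 and -0.18 and a mean of -0.31 ± 0.62. Mks1, also a B9 protein, was the only transition zone gene of these 6 with a mean above 0, at 0.31 ± 0.75, with -0.49, 1.00 and 0.44. The 6 genes therefore did not share a single direction.

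Pcm1, the scaffold of the centriolar satellites that deliver proteins to the cilium base, was the lowest of the 37 genes. Its intensities were 1768, 2805 and 5645 in wild type and 780, 1204 and 2179 in mutant+CT. The wild-type signal differed more between arrays than the ratio did, and the groups overlapped in intensity only across arrays. The ratios were -1.18, -1.22 and -1.37, with a mean of -1.26 ± 0.10, or 2.39-fold lower in mutant+CT. In limma Pcm1 had an unadjusted p of 0.0017 and an adjusted p of 0.102, the smallest of the list but not past the threshold.

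A second Pcm1 probe gave the same direction. It had intensities of 373, 409 and 615 in wild type and of 207, 238 and 302 in mutant+CT, with no overlap, and ratios of -0.85, -0.78 and -1.02 with a mean of -0.89 ± 0.13. The probes lie on the plus strand of chromosome 8, at chr8:42419361-42419420 and chr8:42417537-42417596 in mm9, the build of the files, and start at bases 8300 and 6476 of the listed transcript. No mm9 annotation was used, so exons were not assigned. The first 30 of the 60 bases of each, brighter probe first, are given because this is the gene with the lowest ratio.
Pcm1 probe at 8300: ctgtggaggtactctgtattttgtaacatt
Pcm1 probe at 6476: gacagattcaaaccttgacacactgtggga

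Ofd1, a centriole and satellite protein, had ratios of 0.20, 0.13 and 0.56 and a mean of 0.30 ± 0.23. Hdac6, the tubulin deacetylase that takes part in cilium disassembly, had the highest mean of the list at 0.67 ± 0.57. Its intensities were 6068, 6010 and 6047 in wild type and 6245, 10653 and 13313 in mutant+CT, which did not overlap. Replicate 1 hardly differed, with a ratio of 0.04, against 0.83 and 1.14. The second Hdac6 probe, which shares 48 bases with the first and is no independent measurement, had 0.63 ± 0.57. Its ratios were -0.02, 0.90 and 1.00, so that Hdac6 was higher on every array by its brightest probe only.

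Neither transcription factor kept its sign. Foxj1, the master regulator of motile cilia, had intensities of 326, 692 and 266 in wild type and of 619, 459 and 841 in mutant+CT, which overlapped. Its ratios were 0.92, -0.59 and 1.66, with a mean of 0.66 ± 1.15, the widest spread of the 37 genes. That mean rested on single arrays, at 1.29 without replicate 2 and 0.17 without replicate 3. A dye term in the model gave 0.35. Rfx3, an RFX factor of cilium genes, had 164, 201 and 227 in wild type and 226, 154 and 137 in mutant+CT, and ratios of 0.46, -0.39 and -0.73. Its mean was -0.22 ± 0.61, and without replicate 3 it was 0.037.

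In 3 of the 15 genes with several kept probes (20%), against 12.6% of all such genes, the probes differed by at least 1 on the log2 scale in mean ratio. These genes were Arl13b, Cep164 and Kif3a. In each, a probe nearer the start of the transcript was brighter in mutant+CT on every array. The brightest probe, nearer the end, had a mean ratio of -0.20, 0.37 and -0.31, with mixed signs in Arl13b and Kif3a. These 3 probes were also the only ones among the 53 that were at least 2-fold higher on every array (5.66%, against 2.04% of all probes). At least 2-fold lower on every array was the brighter Pcm1 probe alone (1.89%, against 0.984%).

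The probes that were higher in mutant+CT are printed whole, 5′ to 3′, because they carry this difference, with the longest unbroken run of A and G in capitals. They lie at chr16:62827035-62827094 on the minus strand (Arl13b, probe A_51_P409988), chr9:45617851-45617910 on the minus strand (Cep164, A_55_P2091364) and chr11:53397887-53397946 on the plus strand (Kif3a, A_55_P1978441), in mm9.
Arl13b probe at 572: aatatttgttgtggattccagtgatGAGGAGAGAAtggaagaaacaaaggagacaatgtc
Cep164 probe at 449: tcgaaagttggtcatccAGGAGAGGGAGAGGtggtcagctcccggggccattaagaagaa
Kif3a probe at 1215: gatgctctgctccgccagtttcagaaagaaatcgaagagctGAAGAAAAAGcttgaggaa

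The brightest probes of the same genes are shown by their first 30 bases, with no capitals.
Arl13b probe at 3225: gctcatctggtttgaagatattcttgcttc
Cep164 probe at 5238: ccacagggtctcaccgatttattgttcgtt
Kif3a probe at 2961: acacacacattctaaaacattccctggaca

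At Arl13b, the probe at base 572 had intensities of 124, 344 and 177 in wild type and of 513, 993 and 1387 in mutant+CT, without overlap. Its ratios were 2.05, 1.53 and 2.97, with a mean of 2.18 ± 0.73 (limma over all probes, adjusted p = 0.0737). It passed in limma with the replicate block in a separate-channel fit (adjusted p = 0.0296), with Agilent's processed signals (0.0374) and with a trended and robust prior (0.0431). These were 3 of the 13 alternatives run for it. It failed, for example, in limma without the filter on dim probes (adjusted p = 0.158), with a dye term (0.164) and without replicate 3 (0.197). The probe at base 3225 had 1683, 1230 and 816 in wild type and 1588, 795 and 888 in mutant+CT, and ratios of -0.08, -0.63 and 0.12 with a mean of -0.20 ± 0.39. Without replicate 2 that mean was 0.018.

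Cep164, a protein of the distal appendages that dock the centriole at the membrane, had the only probe of the 53 that passed the test over all probes (1.89%, against 0.437% of all probes). Its probe at base 449 had intensities of 259, 288 and 330 in wild type and of 1262, 1149 and 1219 in mutant+CT, far apart. The ratios were 2.29, 2.00 and 1.89, with a mean of 2.06 ± 0.21, or 4.16-fold (limma over all probes, adjusted p = 0.0493). The call was lost without replicate 1, 2 or 3 (adjusted p = 0.0796, 0.126 and 0.139), where the ratio was 1.94, 2.09 and 2.14. It was also lost in limma without background subtraction (adjusted p = 0.0528), with median centring (0.0604), without the filter on dim probes (0.104) and with a dye term (0.127). The 2 other Cep164 probes, which share 36 bases, had means of 0.37 ± 0.24 and 0.40 ± 0.16.

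At Kif3a, the probe at base 1215 had intensities of 452, 422 and 1102 in wild type and of 1258, 1104 and 3025 in mutant+CT, which met at the highest wild-type and the lowest mutant+CT value. Its ratios were nearly equal on the 3 arrays, at 1.48, 1.39 and 1.46, with a mean of 1.44 ± 0.05 (limma over all probes, adjusted p = 0.0694). The probe at base 2961 had 2312, 1654 and 5521 in wild type and 2094, 2147 and 2479 in mutant+CT, and ratios of -0.14, 0.38 and -1.16 with a mean of -0.31 ± 0.78. Without replicate 3 the latter mean was 0.12. When all kept probes of a gene were averaged, Arl13b had a mean ratio of 0.99 and Kif3a of 0.57.

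**Figure D2:**
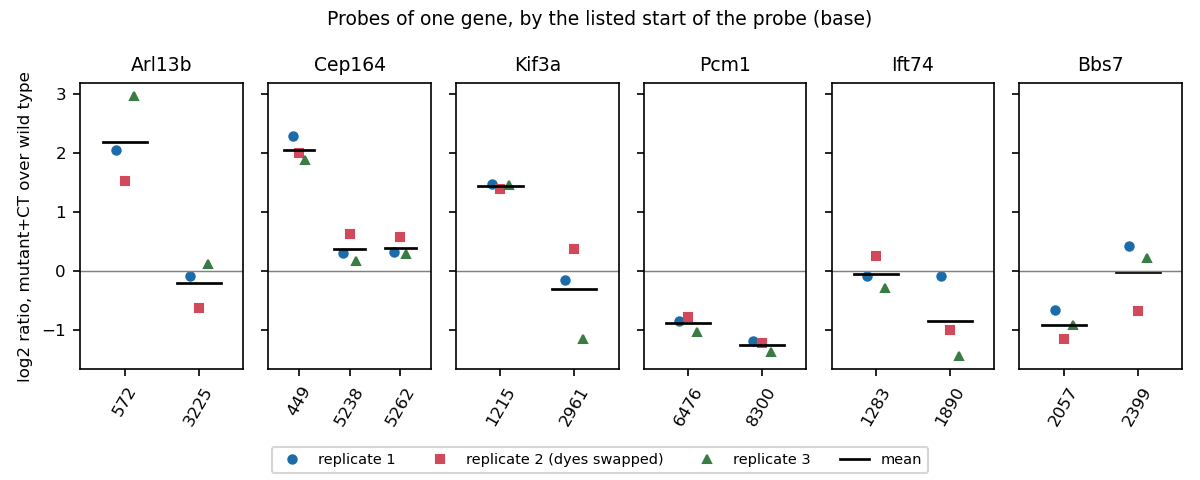
Log2 ratio of mutant+CT over wild type (y axis) of each kept probe of 6 genes, placed by the listed start of the probe in its transcript (x axis, base). Symbols are the 3 arrays and lines their mean. Probes of Arl13b, Cep164 and Kif3a nearest the start lie at 2.18, 2.06 and 1.44. The other probes of these genes have means from -0.31 to 0.40, and both Pcm1 probes lie below 0.

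The 3 probes that were higher share a base composition rich in A and G, at 68.3% in Arl13b, 65.0% in Cep164 and 63.3% in Kif3a. Their brighter partners have 43.3%, 41.7% and 43.3%. Over all kept probes the mean ratio moved with this share. The median was -0.05 over 11955 probes with less than 50% A and G, 0.02 over 10372 probes from 50% to 60%, 0.08 over 3591 probes from 60% to 70% and 0.33 over 399 probes at or above 70%. At least 2-fold higher on every array were 1.60%, 1.92%, 2.62% and 13.0% of these probes. The part of base composition in the 3 probes' ratios was not tested. The cilium probes had medians of -0.31, -0.17 and 0.34 in the ranges below 50%, from 50% to 60% and from 60% to 70%. Of the 12 in the last range, the other 9 were not 2-fold higher on every array.

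**Figure D3:**
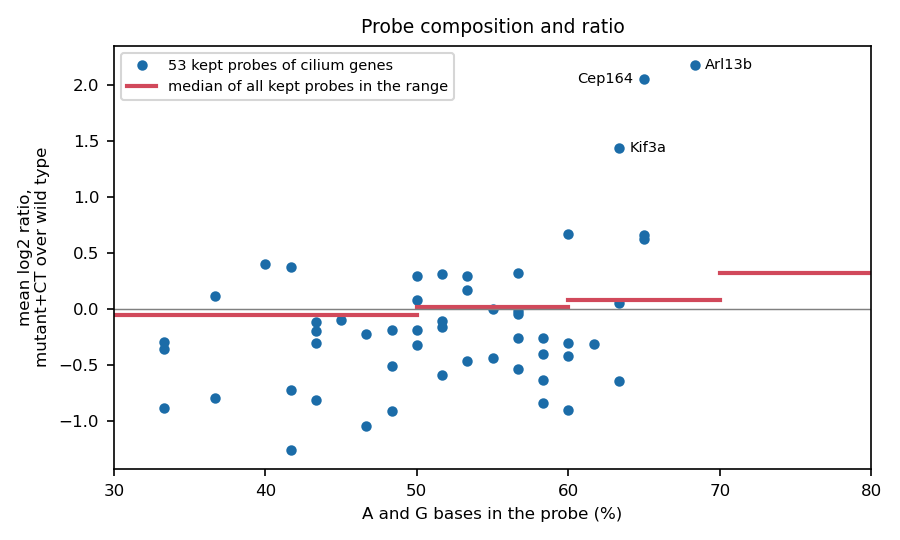
Mean log2 ratio of mutant+CT over wild type (y axis) against the share of A and G in the probe (x axis, %), for the 53 kept probes of the cilium genes (points). Red lines are medians of all kept probes in 4 ranges of that share, from -0.05 to 0.33. The 3 named probes lie far above the red line of their range.

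Promoter motifs are a feature that the choice of genes did not use. RefSeq promoter windows of GRCm38.p6, from 250 bases upstream to 50 bases downstream of the start, were matched for 32 of the 37 genes, with 33 windows. No entry was matched for Ift80, Ift81, Ift122, Pcm1 and Foxj1. The X-box, searched on both strands, occurred in 4 of the 33 windows (12.1%), against 502 of all 32851 (1.53%). The motif's arm GTTGCC, which is part of most X-box matches shown but not of that of Tctn2, was found on either strand in 15 of the 33 (45.5%), against 12.5% of all windows. Neither was particular to these genes among the cilium lists named below. The X-box occurred in 8 of 24 motile cilium windows and the arm in 12. Other transition zone and basal body genes had 5 and 9 of 30, and other transport and motor genes 1 and 6 of 14. Trafficking genes had 1 and 2 of 23, disassembly genes 0 and 3 of 8 and RFX genes 0 and 2 of 6. The 7 centriole and 6 Hedgehog windows had neither.

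The 4 genes with an X-box were Ift57, Tctn2, Bbs1 and Tctn1, and their sequences are shown because the motif is the known binding site of RFX factors. Capitals mark the match. Ift57 has 2 matches, which begin at -87 and -60 from the start site, and that of Tctn2 begins at -62. The upstream windows are chr16:49699044-49699293 for Ift57 and chr5:124598499-124598748 for Tctn2, both on the plus strand of GRCm38.p6. Those of Bbs1 and Tctn1, on the minus strand at chr19:4906605-4906634 and chr5:122264411-122264432, lie at and just after the start site and are shown with their nearest bases.
Ift57: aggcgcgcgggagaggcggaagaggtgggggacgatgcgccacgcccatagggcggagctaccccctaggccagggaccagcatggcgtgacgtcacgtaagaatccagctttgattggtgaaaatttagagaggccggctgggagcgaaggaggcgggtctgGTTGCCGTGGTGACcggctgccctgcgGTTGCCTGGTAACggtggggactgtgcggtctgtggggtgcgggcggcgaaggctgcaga
Tctn2: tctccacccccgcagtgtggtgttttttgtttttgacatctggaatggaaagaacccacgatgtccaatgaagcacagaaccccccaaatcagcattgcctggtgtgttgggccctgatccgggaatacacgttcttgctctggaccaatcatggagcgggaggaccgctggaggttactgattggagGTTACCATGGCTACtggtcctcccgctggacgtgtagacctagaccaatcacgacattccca
Bbs1: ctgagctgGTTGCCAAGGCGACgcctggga
Tctn1: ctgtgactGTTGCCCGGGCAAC

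The motif and the ratio did not go together in any simple way. The 4 genes with an X-box had a median ratio of -0.33, with 3 lower on every array, and the 28 without had one of -0.26, with 13 lower on every array. The 15 genes with GTTGCC had a median of -0.22 and the 17 without one of -0.31. Among the genes with GTTGCC were Ift172 at -0.91 and Bbs7 at -0.90, but also Mks1 at 0.31 and Cep164 at 0.37. Among those without was Bbs12 at -1.04. A match is a description of letters and not of binding.

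**Figure D4:**
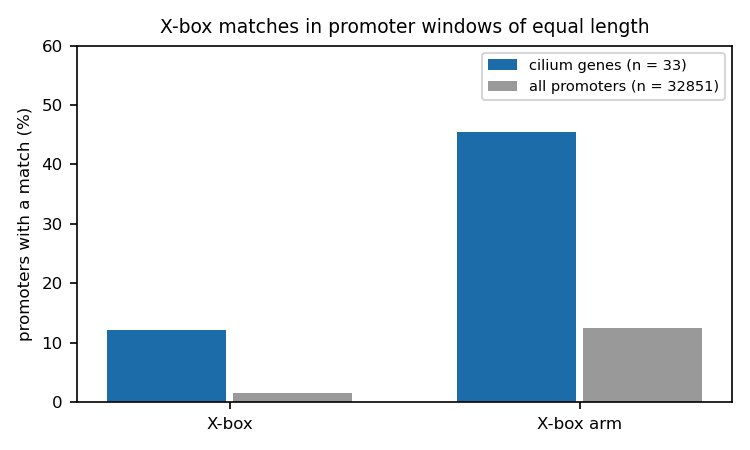
Share of promoter windows (y axis, %) with an X-box or with its arm GTTGCC (labelled X-box arm), for the cilium genes (blue, 33 windows) and for all RefSeq promoters (grey, 32851 windows). The blue bars are at 12.1% and 45.5% and the grey ones at 1.53% and 12.5%.

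Other genes of the cilium were set beside the list. None of them passed the adjusted threshold in limma. On every array, 17.4% of all genes were lower and 20.3% higher. At an unadjusted p under 0.05, 6.7% of all genes were lower and 9.04% higher. In the lists, such a p was found for 2 lower and 0 higher of 14 other transport and motor genes, 2 and 2 of 13 trafficking genes, 3 and 0 of 22 transition zone and basal body genes, and 3 and 2 of 18 motile cilium genes. It was found for 1 and 0 of 7 disassembly genes, 2 and 0 of 8 Hedgehog genes, 1 and 1 of 6 RFX genes and 0 of 8 centriole genes. Of 14 other genes of intraflagellar transport and its motors, 5 were lower and 1 higher on every array, with a median of -0.23. Ift22, a small GTPase of IFT-B, was the furthest down, with -1.73, -1.26 and -2.49 and a mean of -1.83 ± 0.62, and Ttc30a1, an IFT-B subunit, had -1.05 ± 0.77. In the 13 other BBSome and ciliary trafficking genes, 4 were lower and 3 higher on every array, with a median of -0.11. Bbip1, the smallest BBSome subunit, had -1.26 ± 0.32, and Rp2, which acts on Arl3, had 1.17 ± 0.30.

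Of 22 other transition zone and basal body genes, 9 were lower and 2 higher on every array, with a median of -0.22. The smallest p belonged to Sclt1, a distal appendage protein, at -0.88 ± 0.51, and Ttbk2, the kinase that starts cilium growth, at -0.82 ± 0.57. The 18 genes of motile cilia went both ways, with 4 lower and 4 higher on every array and a median of 0.21. Those with the smallest p, Pifo and Rsph9, were both lower, unlike the median of the list. Pifo, well above background on only 2 of the 3 mutant+CT channels, had -0.89 ± 0.28. Rsph9, of the radial spoke, had -0.98 ± 0.57.

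Centriole duplication genes were lower on every array in 3 of 8 cases and higher in 0, with a median of -0.22. The smallest p belonged to Stil, at -0.55 ± 0.24, and Cep63, at -0.49 ± 0.44 and with mixed signs. Cilium disassembly genes were split at 2 lower and 2 higher of 7, with a median of 0.10, and the smallest p belonged to Nedd9, at -0.89 ± 0.69, and Nde1, at -0.41 ± 0.18. In the Hedgehog group of 8, the median was -0.01, with 2 lower and 1 higher. By smallest p, Gli3, whose protein is processed at the cilium, had -1.89 ± 1.41 and Smo, the receptor that enters it, -1.09 ± 0.83. The gene higher on every array was Gli1, named after its values were seen, with 0.61, 0.12 and 0.91. Of the 6 other RFX genes, 1 was lower and 1 higher on every array. Rfx4, well above background on only 2 of the 3 mutant+CT channels, had -2.96, -0.36 and -2.92. Rfx2, which is also counted among the motile cilium genes, had 0.92 ± 0.76.

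**Figure D5:**
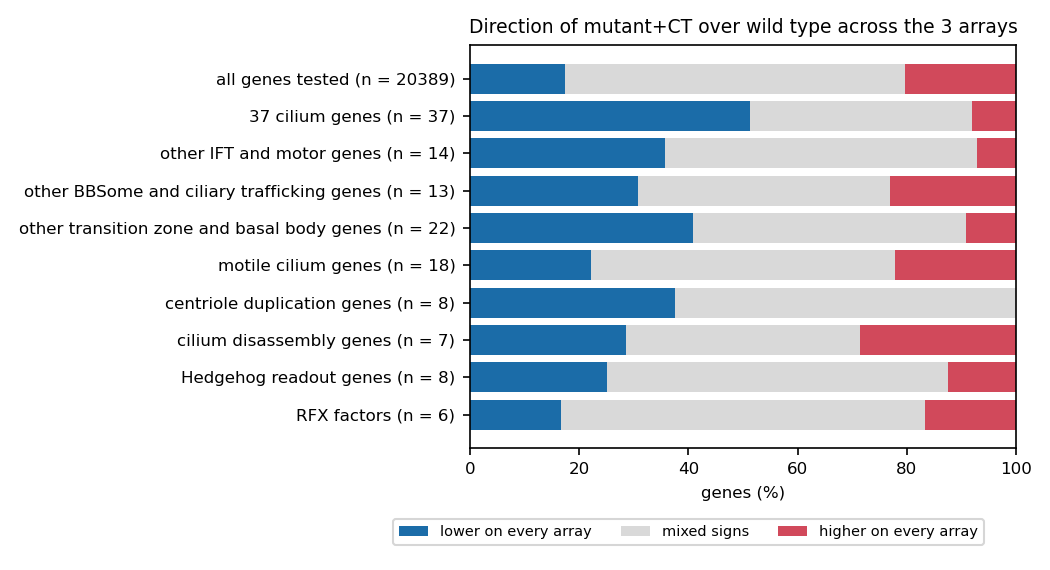
Share of genes (x axis, %) that were lower on every array (blue), higher on every array (red) or mixed (grey) in mutant+CT against wild type, for all genes tested, the 37 cilium genes and 8 other cilium lists. Lower on every array were 51.4% of the cilium genes and 17.4% of all genes.

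Markers of several cell types had far larger ratios than the cilium genes. For the counts below, 17.4% of all genes were lower and 20.3% higher on every array. Of 11 neural progenitor markers, 8 were lower and 0 higher on every array, with a median of -2.19 and medians of -2.34, -0.78 and -3.00 by array, from Fabp7 at -4.24 to Msi1 at -0.19. Their summed intensity was 4725 to 44986 in wild type and 2577 to 3879 in mutant+CT. Such sums, here and below, weigh the brightest probes most, and their ranges over the arrays leave out the pairing. Neuron markers were lower on every array in 5 of 8 cases and higher in 2, with a median of -1.45, from Dcx at -3.07 to Elavl3 at 1.17, and sums of 6125 to 24954 against 4646 to 10582. Dcx was well above background on only 1 of the 3 mutant+CT channels. All 7 parietal endoderm markers were lower on every array, with a median of -2.25, from Thbd at -3.00 to Sox17 at -0.77, and sums of 211592 to 442195 against 30085 to 180232.

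Naive pluripotency markers were higher on every array in 7 of 9 cases, with a median of 1.59, from Klf4 at -0.68 to Nr0b1 at 2.67, and sums of 42665 to 52242 in wild type against 84760 to 227040 in mutant+CT. All 7 visceral endoderm markers were higher on every array, with a median of 1.13, from Ttr at 0.84 to Trf at 2.24, and sums of 28635 to 141395 against 108311 to 311912. Of 5 trophoblast markers, 3 were higher, with a median of 1.14, from Elf5 at -0.05 to Ctsj at 3.42, and sums of 3495 to 5014 against 7885 to 29778.

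Cardiomyocyte and mesenchyme markers had medians of 0.20 and 0.29, but replicate 1 stood apart from the others. By array the cardiomyocyte medians were 3.79, -0.87 and -0.73 and the mesenchyme medians 2.95, -1.66 and -0.53. The former list ran from Hand2 at -0.34 to Myh6 at 1.74, with sums of 7025 to 8485 in wild type and 6308 to 70786 in mutant+CT. The latter list ran from Pdgfra at -1.06 to Col1a1 at 0.64, with sums of 13666 to 29753 against 6328 to 183891. The 5 proliferation markers had a median of -0.04 and mixed signs, from Mki67 at -0.65 to Cdk1 at 1.09, with sums of 50946 to 98052 against 57190 to 91341. The part of these cell types in the ratios of the cilium genes was not tested.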

How the data were processed

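RNA was measured on 3 Agilent arrays of 2 colours. Intensity values (a spot's mean signal and its local background, in green and red) stand in the deposited scanner output, with a log10 ratio of red over green that was used here only to check direction. Per the file headers, Agilent Feature Extraction 10.7.3.1 made these values. The deposited value table holds normalised log2 ratios of the authors, made with limma per the submitters' processing notes, with scale, centring and direction not stated. Its columns had medians of -0.02, 0.01 and -0.01 and followed the ratios computed here, read as mutant+CT divided by wild type, at correlations of 0.994, 0.996 and 0.998.

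The software was limma 3.58.1 with statmod 1.5.0 under R 4.3.3. Normexp (offset 50) removed background, and loess within each array normalised the dyes, with weight 0 for control spots. Outlier spots marked in the files (454, 234 and 507) were treated as missing. A probe passed the filter when all 3 channels of wild type, or all 3 of mutant+CT, were well above background (26317 of 39429 probes). The test of each ratio against 0 used lmFit and eBayes with Benjamini-Hochberg adjustment (adjusted p under 0.05), over 20389 genes by brightest probe and separately over all kept probes. Positions are the files' mm9 coordinates. Promoter windows are RefSeq's, of GRCm38.p6, and were searched in Python 3.11.15.

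The genes and lists were chosen with earlier results of these data known. Values on every array were given for genes that differed at least 1.5-fold in 1 direction on all arrays, the 10 with the smallest p, those whose probes differed by at least 1 on the log2 scale, the 2 nearest to 0, and Foxj1 and Rfx3. Of each other cilium list the 2 genes with the smallest p were named, and of each marker list the lowest and the highest. The steps were tested on simulated data. Alternatives were other background corrections, normalisations, filters, priors and thresholds, all probes averaged, a dye term, the authors' table, each array left out, and a separate-channel fit with the replicate block. Leaving out probes of at least 60% A and G was added after the results were seen. The number of arrays limits the precision.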

Additional observations from a re-analysis of the deposited data

How the results depend on the processing

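The count of cilium genes lower on every array ran from 16 to 19 with all arrays (14.8% to 18.4% of all genes), the 16 without probes of at least 60% A and G out of 32 genes. It ran from 20 to 23 with a replicate left out, where the share of all genes was 23.9% to 34.5%. Their median ratio ran from -0.42 to -0.24 over all the alternatives run for them, including each array left out. For the median these included the separate-channel fit with the replicate block (-0.30, intraspot correlation 0.31). Aquantile and that fit work on the same ratios of each array, outlier spots aside, so their equal median adds no support. Higher on every array were 3 genes (against 20.3% of all genes), and 6 with the mean of all kept probes (against 20.7%). The count was 2 to 4 under the other alternatives with all arrays (against 17.2% to 21.6%). With each replicate left out, where fewer arrays have to agree in sign, the count was 4 to 7 (against 25.8% to 36.7%). Cilium genes past the threshold numbered 0 under every alternative, the pairing of the channels by replicate block included, except for 10 at an unadjusted p under 0.05. Over all genes the 0 calls became 290 with Agilent's processed signals, 12 with the filter in both channels, 176 with a trended and robust prior, 298 at an adjusted p under 0.1, 3211 at an unadjusted p under 0.05, 474 in the separate-channel fit with the replicate block, and 0 to 147 with each replicate left out, with 147 without replicate 1; the cause was not tested. The single cilium probe called became 0 without background subtraction, with median centring, without the filter, with a dye term, without probes of at least 60% A and G, which leave out that probe, and with any replicate left out (0 to 0). It became 2 with the processed signals, the trended prior and the replicate block, all higher. It became 4 at an adjusted p under 0.1 (3 higher, 1 lower) and 15 at an unadjusted p under 0.05 (3 higher, 12 lower). The shares of all probes under these alternatives were not computed. Of 252 pairs of a named gene and an alternative, 243 kept the sign of the mean ratio and 9 turned it. Aquantile, the trended prior and the separate-channel fit returned the main mean ratio of each named gene. Many of the kept signs were therefore fixed in advance and are no measure of robustness. A kept sign did not always mean a kept size. Bbs7 went from -0.90 to -0.46 with the mean of all kept probes. It had -0.01 without probes of at least 60% A and G, which leave out its brighter probe. Among the turned signs, Ift140 had 0.020 without background subtraction and 0.065 with the processed signals. Kif3a had 0.57 and Arl13b 0.99 with the mean of all kept probes, which for these genes brings in the higher probe. Bbs5 had -0.046 with a dye term. With each replicate left out, Kif3a ran from -0.65 to 0.12 and Bbs5 from -0.16 to 0.32, and Rfx3 from -0.56 to 0.037, turning without replicate 3, and Arl13b from -0.36 to 0.018, turning without replicate 2; the cause was not tested. The separate-channel fit used Aquantile and kept the spots marked as outliers. With 3 arrays, and with probes such as that of Ift140 near background, small ratios are not resolved.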
